A study of Mus musculus with 6 samples.

Results

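Complement was followed in the lung through 9 genes: C1qa, C1ra, C1s1, C4b and C2 of the classical pathway, C3 and Cfb at the amplifying step, C7 of the lytic complex, and the regulator Serping1. They were found by symbol and mouse Ensembl identifier among the 52636 genes of the deposited count table, and all 9 had a row. Serping1 was chosen by its measured level, since it had been picked as abundant in the KLRG1-negative libraries, so its levels are described and carry no test. The other 8 were listed by pathway role, but with earlier results of these data known. The shares of all genes set beside them below are therefore descriptive. The 6 libraries came from innate lymphoid cells (ILC) of wild-type C57BL/6 mice carrying the Il4-4get reporter, an allele that marks cells transcribing Il4 with GFP. All mice received 500 ng of recombinant IL-33 intraperitoneally for 4 days and were killed on day 5, so no group was without IL-33. Lineage-negative, CD90-positive lung cells were sorted to a stated purity above 90% as KLRG1-negative ILC in 3 libraries and as KLRG1-positive ILC2 in 3 libraries, the latter also described as KLRG1-high in the protocol. KLRG1 is a surface receptor carried by activated group 2 innate lymphoid cells, the type 2 cytokine producers that respond to IL-33. The lineage antibodies are not named in the sources used here, and nothing there says whether the libraries came from separate mice. The p-values therefore measure the spread between these libraries, which may be partly technical.

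Complement is a cascade of plasma and tissue proteins that tags surfaces for uptake and can lyse cells. C1q recognises bound antibody or other ligands and activates the proteases C1r and C1s. C1s cleaves C4 and C2 to form a convertase that cleaves C3, and factor B forms the C3 convertase of the alternative pathway. C5 to C9 build the lytic pore, and C1 inhibitor, the product of Serping1, inactivates C1r and C1s. Liver supplies most of the plasma proteins, fibroblasts and other stromal cells make many of them locally, and C1q comes largely from macrophages and dendritic cells.

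The upstream DNA of C3 and C1s1 is shown because C3 had the highest mean level of the members and C1s1 passed the main test. That call did not hold when libraries were paired by their number. Both are the 250 bases before the first transcribed base, 5′ to 3′ on the gene's strand, from RefSeq on GRCm38.p6. RefSeq gives C1s1 a second start, whose window, 124542322 to 124542571 on chromosome 6, held no match to the patterns searched. Capitals mark a match to the C/EBP pattern TTGCNNAA, read on both strands.
C3, chr17:57228137-57228386, minus strand: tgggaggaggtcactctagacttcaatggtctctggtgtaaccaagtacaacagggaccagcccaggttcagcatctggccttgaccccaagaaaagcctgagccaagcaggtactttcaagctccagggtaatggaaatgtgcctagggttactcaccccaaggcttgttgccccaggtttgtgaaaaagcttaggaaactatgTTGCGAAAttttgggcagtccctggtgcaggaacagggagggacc
C1s1, chr6:124542360-124542609, minus strand: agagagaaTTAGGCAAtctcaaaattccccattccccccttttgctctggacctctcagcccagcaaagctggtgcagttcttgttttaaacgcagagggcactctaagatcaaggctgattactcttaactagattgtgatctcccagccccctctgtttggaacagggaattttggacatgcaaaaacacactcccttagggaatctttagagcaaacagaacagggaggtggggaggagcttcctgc
In C3 the match TTGCGAAA lay 45 to 38 bases before the first transcribed base, and in C1s1 the match TTAGGCAA lay 242 to 235 bases before it. The pattern occurred in 9.56% of the 32851 mouse windows of this length, so a match in 2 genes is a description only. RefSeq windows were used for C1ra, C1s1, C3 and C7, 4 of the 9 members. The STAT pattern TTCNNNGAA, held by 7.02% of all windows, matched once, in C7, as TTCCCAGAA at 164 to 156 bases upstream. The TATAAA pattern, held by 12.4% of windows, also matched C7, as TTTATA at 6 to 1 bases upstream. The core of the interferon-stimulated response element, held by 2.98% of windows, had no match in these 4 genes.

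Assigned read counts ranged from 17323004 to 23946073 per library, and 15197 genes passed the low-count filter, all 9 members among them. In KLRG1-positive libraries C1ra had 72, 0 and 10 counts, C1s1 54, 8 and 6, C7 82, 0 and 1, and Cfb 2, 4 and 3. These members passed the filter through their KLRG1-negative counts. Levels below are counts per 1000000 (CPM) on library sizes scaled by the trimmed mean of M-values (TMM), and log2 fold changes are KLRG1-positive minus KLRG1-negative. Adjusted p-values come from edgeR's quasi-likelihood test with Benjamini-Hochberg adjustment over all 15197 genes, called at 0.05. This main fit does not pair libraries by their number, although libraries of one number deviated together. The sort marker Klrg1 gave 13.1, 193 and 73.2 CPM in KLRG1-negative and 1485, 1786 and 1327 CPM in KLRG1-positive libraries, without overlap. Of 10 ILC2 marker genes 9 had a positive log2 fold change and 0 passed the test. Their summed level was 1412 to 3490 CPM in KLRG1-negative and 6999 to 8916 CPM in KLRG1-positive libraries. All 12 fibroblast markers, led by Col3a1 and Dcn, had a negative log2 fold change. The test called 10 of them lower in KLRG1-positive cells, where 1.21% of all tested genes were, and none was at 0 throughout. Their sum was 4603, 7793 and 12573 CPM in KLRG1-negative and 54.9, 33.6 and 19.6 CPM in KLRG1-positive libraries. The mesothelial markers, led by Upk3b and Msln, summed to 120, 901 and 677 CPM against 11.3, 16.0 and 7.01 CPM, with 0 of 4 passing. The 5 B cell markers summed to 7116 to 27449 CPM against 2378 to 8358 CPM, also with 0 passing. The 6 T cell markers, led by Cd3g and Trac, summed to 3706, 1486 and 915 CPM in KLRG1-negative and to 308, 351 and 294 CPM in KLRG1-positive libraries, without overlap and with 0 of the 5 tested passing. The part of these other cell types in the complement values was not tested, and in sorted bulk cells fewer cells of a type and less RNA per cell cannot be told apart.

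In 7 of the 8 tested members every KLRG1-positive library lay below every KLRG1-negative one, where 15.2% of all tested genes showed that order, 9.46% showed the opposite one and 24.6% either. C1s1 was the 1 member called lower, where 1.21% of all genes were called lower, and 0 members were called higher, where 0.125% of all genes were. At an unadjusted p under 0.05, edgeR put 7 of the 8 lower, where 11.5% of all genes were, and 0 higher, where 4.19% were. With replicate number as a block, 0 of the 8 members were called lower, where 0.349% of all genes were. DESeq2 called 7 of the 8 lower, all but C1qa, where it called 8.79% of its tested genes lower. The median log2 fold change of the 8 was -4.93, beside -0.05 over all genes tested.

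**Figure D1:**
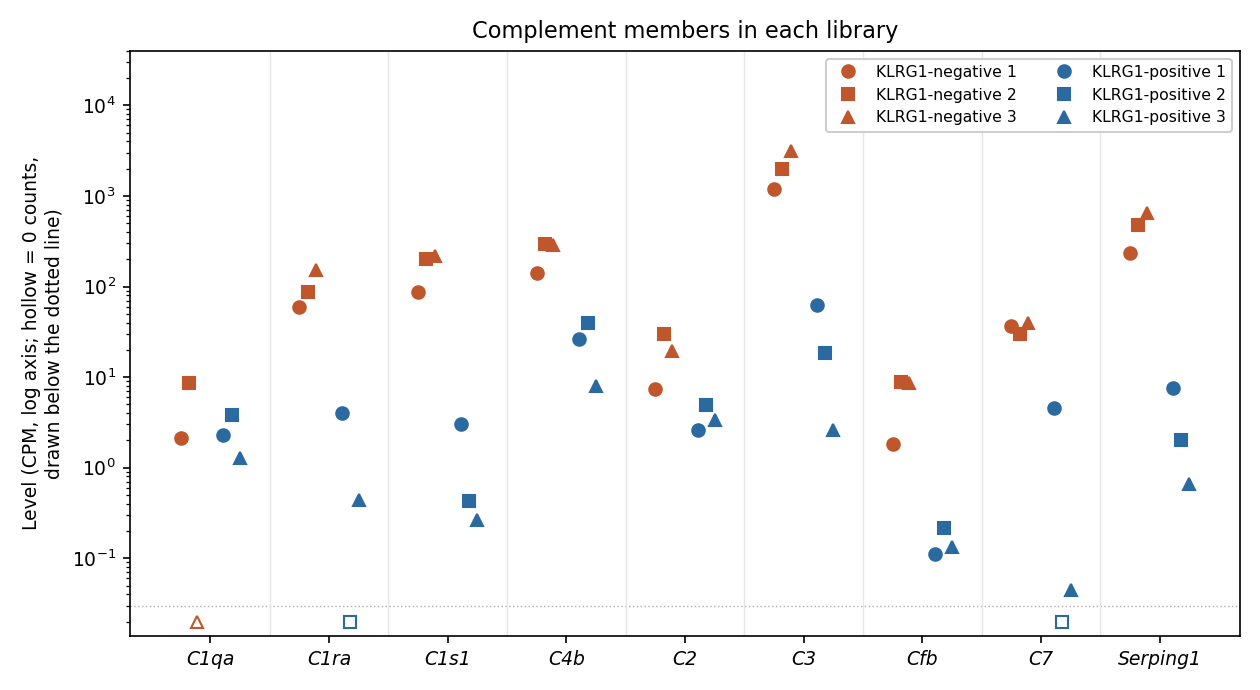
Level of each of the 9 complement members in each of the 6 libraries, in TMM-scaled CPM on a log axis; each symbol is 1 library, coloured by group and shaped by replicate number, and hollow symbols are 0 counts. C1qa overlaps between the groups, while the other 8 members do not.

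C1qa (ENSMUSG00000036887, chromosome 4, 136895917 to 136898803, minus strand, GRCm38) encodes the A chain of C1q, the recognition unit of the classical pathway. It stood at 2.11, 8.63 and 0 CPM in KLRG1-negative libraries 1 to 3 and at 2.31, 3.85 and 1.29 CPM in KLRG1-positive libraries 1 to 3. The groups overlapped, and the highest and the lowest value both belonged to KLRG1-negative libraries. The mean was 3.58 ± 4.50 CPM (SD, n = 3) against 2.48 ± 1.29 CPM (SD, n = 3), and the log2 fold change was -0.53 ± 1.58 (SE; edgeR adjusted p = 0.931). Its sign turned to 0.83 with the replicate block and to 1.29 without KLRG1-negative library 2. The neighbouring C1qb and C1qc, named because they encode the other 2 chains of the same protein, also overlapped between the groups. C1qb stood at 16.1, 25.8 and 0 CPM against 16.3, 26.9 and 3.73 CPM, and C1qc at 5.28, 23.1 and 0.529 CPM against 6.36, 11.2 and 1.82 CPM. In both groups the library numbered 2 was highest and the library numbered 3 lowest for all 3 chains. The 10 macrophage and monocyte markers, led by Chil3 and Lyz2, summed to 879, 923 and 153 CPM in KLRG1-negative and to 711, 737 and 226 CPM in KLRG1-positive libraries, with 0 of the 9 tested passing. The library numbered 3 was lowest in each group for this sum too. Per 1000 macrophage-marker counts, C1qa gave 2.41, 9.36 and 0 counts against 3.25, 5.22 and 5.70.

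**Figure D2:**
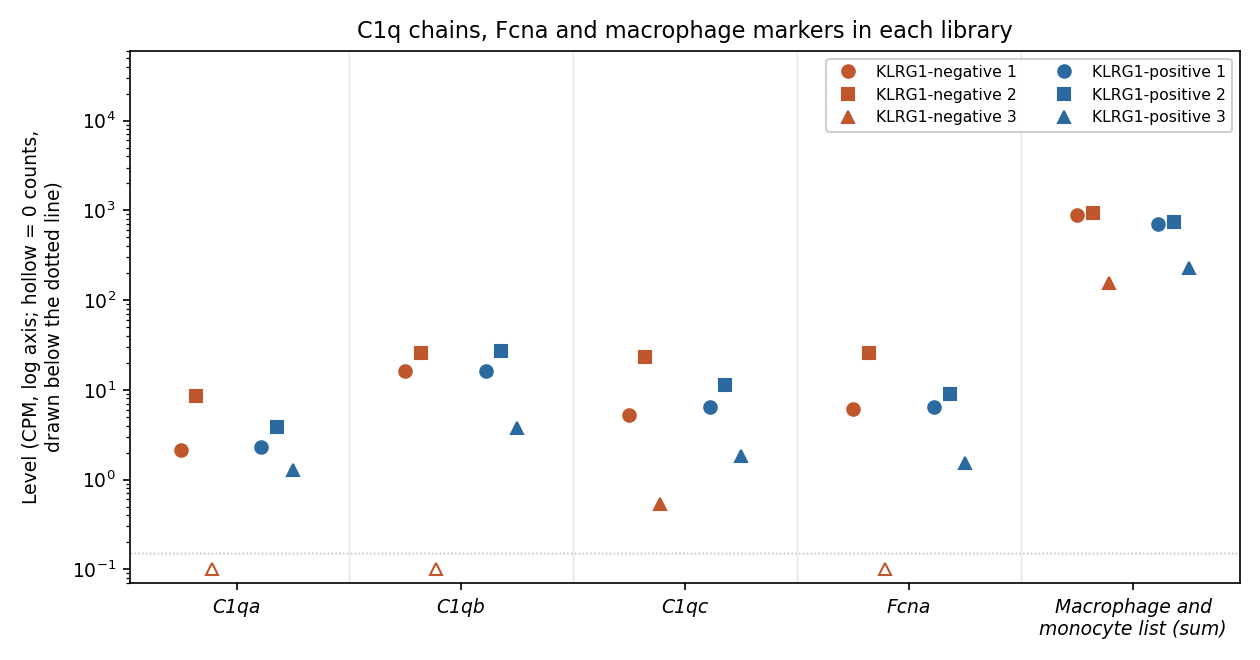
Level of the 3 C1q chains, Fcna and the summed macrophage and monocyte markers in each library, in TMM-scaled CPM on a log axis; hollow symbols are 0 counts. Library 3 of each group is the lowest for every chain, for Fcna and for the marker sum, and the groups overlap.

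C1ra and C1s1 encode the 2 proteases of the C1 complex and lie 6901 bases apart on opposite strands of chromosome 6. C1ra (ENSMUSG00000055172, 124512405 to 124523443, plus strand) stood at 59.0, 86.1 and 153 CPM in KLRG1-negative and at 4.05, 0 and 0.444 CPM in KLRG1-positive libraries. The means, 99.5 ± 48.6 and 1.5 ± 2.22 CPM (SD, n = 3 each), differed 66.4-fold without overlap, and the log2 fold change of -6.06 ± 1.52 (SE) did not pass the test (edgeR adjusted p = 0.114), and was -8.69 without KLRG1-positive library 1 (adjusted p = 0.0530). C1s1 (ENSMUSG00000038521, 124530345 to 124542359, minus strand) stood at 86.7, 199 and 219 CPM against 3.04, 0.427 and 0.266 CPM. All 3 KLRG1-positive libraries were low, and library 1 was the highest of them for both proteases. C1s1 fell from 168 ± 71.1 to 1.24 ± 1.56 CPM (SD, n = 3 each), a 135-fold difference of means, with a log2 fold change of -7.09 ± 1.11 (SE; edgeR adjusted p = 0.0476). The call did not hold with the replicate block (adjusted p = 0.106). It also ended without any one of KLRG1-negative libraries 1, 2 and 3 or KLRG1-positive libraries 2 and 3 (adjusted p = 0.0801, 0.115, 0.135, 0.179 and 0.143), while without KLRG1-positive library 1 the log2 fold change was -8.90 (adjusted p = 0.0203).

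Both proteases have close copies, and the authors' counting left out reads that map to several places. Of the 50-base windows of C1ra transcripts 50.8% also occurred in transcripts of another gene, 48.0% in C1rb, and of those of C1s1 35.1% did, 21.8% in C1s2. Their counts are thus uncertain as absolute levels. The copies, named for that reason, also lay lower without overlap and were not called. C1rb stood at 54.9 ± 27.8 against 0.746 ± 1.07 CPM (SD, n = 3 each; log2 fold change -6.21, edgeR adjusted p = 0.0921). C1s2 stood at 30.9 ± 12.8 against 0.168 ± 0.246 CPM (SD, n = 3 each; log2 fold change -7.53, edgeR adjusted p = 0.0542). Of the exon bases of C1s1 18.4% also lie in Gm16567, and over the unshared bases its level per gene length, in TPM (transcripts per 1000000), was 190 TPM against 1.54 TPM.

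C4b and C2 supply the classical C3 convertase and, with Cfb, lie in the major histocompatibility complex on chromosome 17. C4b (ENSMUSG00000073418, 34728380 to 34743882, minus strand) stood at 140, 292 and 286 CPM in KLRG1-negative and at 26.4, 39.8 and 8.03 CPM in KLRG1-positive libraries. The groups did not overlap, yet the KLRG1-positive libraries kept an average of 24.7 ± 16.0 CPM against 239 ± 85.8 CPM (SD, n = 3 each), a 9.68-fold difference. Its log2 fold change was -3.28 ± 0.64 (SE; edgeR adjusted p = 0.0702). C2 (ENSMUSG00000024371, 34862604 to 34898265, minus strand), the serine protease of that convertase, stood at 7.34, 29.6 and 19.2 CPM against 2.59, 4.86 and 3.37 CPM. Its 5.19-fold difference of means was the smallest among the 8 members without overlap, and the log2 fold change of -2.37 ± 0.61 (SE) did not pass (edgeR adjusted p = 0.122). C4a, the near-identical copy of C4b 65209 bases away and named for that reason, had a log2 fold change of -3.02 (edgeR adjusted p = 0.0542), and 34.6% of the C4b windows were shared with it.

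C3 (ENSMUSG00000024164, chromosome 17, 57203970 to 57228136, minus strand) encodes the central component on which all activation routes converge. It stood at 1205, 1982 and 3157 CPM in KLRG1-negative and at 62.9, 18.5 and 2.62 CPM in KLRG1-positive libraries. The groups did not overlap, and the KLRG1-positive libraries spread over a wider ratio than the KLRG1-negative ones. The means were 2115 ± 983 and 28.0 ± 31.2 CPM (SD, n = 3 each), a 75.5-fold difference, and the log2 fold change of -6.24 ± 1.24 (SE) missed the threshold (edgeR adjusted p = 0.0704), and was -7.63 without KLRG1-positive library 1 (adjusted p = 0.0619). Cfb (ENSMUSG00000090231, 34856374 to 34862518 on chromosome 17, minus strand) encodes factor B, the protease of the alternative convertase. It was low throughout, at 1.84, 8.79 and 8.70 CPM against 0.113, 0.214 and 0.133 CPM, the latter being 2, 4 and 3 counts. The log2 fold change was -5.34 ± 0.90 (SE; edgeR adjusted p = 0.0542), and without KLRG1-negative library 1 it was -5.78 (adjusted p = 0.0492).

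The counts of Cfb and C2 were limited by overlapping gene models. Cfb and C2 lie 85 bases apart, and the read-through gene Gm20547 spans parts of both, so that 2246 of 2825 exon bases of Cfb (79.5%) and 1817 of 3872 of C2 (46.9%) belong to more than one model. Reads on such bases were left out as ambiguous, and Gm20547, named for this overlap, had 0 counts in all 6 libraries. Over unshared exon bases alone, Cfb reached 32.3 TPM against 0.800 TPM and C2 26.8 TPM against 5.30 TPM. The CPM of both genes are therefore underestimates of level. The values over unshared bases are the same counts over a shorter length, so they cannot change the ratio between the groups.

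C7 (ENSMUSG00000079105, chromosome 15, 4988762 to 5063773, minus strand) encodes a component of the lytic pore. It stood at 37.0, 29.7 and 39.5 CPM in KLRG1-negative and at 4.62, 0 and 0.0444 CPM in KLRG1-positive libraries, the latter being 82, 0 and 1 counts. The KLRG1-negative libraries lay close together at 35.4 ± 5.07 CPM (SD, n = 3), whereas nearly all C7 reads of the KLRG1-positive group came from library 1. The log2 fold change of -4.52 ± 1.77 (SE) did not pass the test (edgeR adjusted p = 0.292). Without KLRG1-positive library 1 it was -10.20, and C7 was called lower (edgeR adjusted p = 0.0203).

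Serping1 (ENSMUSG00000023224, chromosome 2, 84765387 to 84775444, minus strand), the gene of C1 inhibitor, was the second most abundant member in KLRG1-negative cells after C3. It stood at 232, 477 and 643 CPM in KLRG1-negative and at 7.54, 2.03 and 0.666 CPM in KLRG1-positive libraries. The groups did not overlap, which is a description, because high levels in the first group chose the gene. The means were 451 ± 207 and 3.41 ± 3.64 CPM (SD, n = 3 each), 132-fold apart, with a log2 fold change of -7.05, and of -8.38 without KLRG1-positive library 1. KLRG1-positive library 1 was thus the highest of its group for Serping1, as it was for C1ra, C1s1, C3 and C7.

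Per unit of gene length, C3 had the highest mean in both groups, in the KLRG1-positive group through library 1 alone. In KLRG1-negative cells the mean TPM were 1167 ± 489 for C3, 554 ± 243 for Serping1, 155 ± 68.1 for C1s1, 121 ± 48.6 for C4b, 94.3 ± 40.6 for C1ra, 37.1 ± 1.85 for C7, 14.2 ± 9.61 for C2, 10.7 ± 14 for C1qa and 6.62 ± 4.27 for Cfb (SD, n = 3 each). C3 ranked 81 and Serping1 210 among all genes by mean TPM. C1s1 exceeded C4b in 3 of 3 libraries, and C4b exceeded C1ra in 2 of 3, so the latter neighbours are not ordered beyond their spread. All of these have close copies and multi-mapping reads were left out, so their order is uncertain. The TPM of Cfb and C2 are underestimates because of the shared bases. Over unshared bases, at 32.3 and 26.8 TPM, both had means above that of C1qa, so the last 3 places are not an order of level. Cfb also exceeded C7 in KLRG1-negative libraries 2 and 3 over those bases, at 48.4 and 39.7 against 35.0 and 38.5 TPM. The place of C7 is thus not settled either. In KLRG1-positive cells the means were 17.2 ± 19.6 TPM for C3, 13.4 ± 8.77 for C4b, 7.29 ± 3.90 for C1qa, 4.62 ± 5.07 for Serping1, 2.81 ± 0.898 for C2, 1.83 ± 3.13 for C7, 1.59 ± 2.4 for C1ra, 1.25 ± 1.61 for C1s1 and 0.164 ± 0.0581 for Cfb (SD, n = 3 each). There C3 exceeded C4b in 1 of 3 libraries, and C4b exceeded C1qa in 3 of 3. C1s1 exceeded Cfb in 3 of 3 by full length but in 1 of 3 over unshared bases, at 3.81, 0.511 and 0.295 TPM against 0.622, 1.13 and 0.651 TPM. C3 ranked 7053 and Serping1 10591 in this group.

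By full gene length, the summed level of the 9 members was 1176, 2439 and 2865 TPM in KLRG1-negative and 86.5, 50.8 and 13.1 TPM in KLRG1-positive libraries. Its make-up was steady in the first group: C3 made 55.2%, 50.4% and 56.6% of the sum and Serping1 23.5%, 26.9% and 25.5%. In KLRG1-positive libraries C3 made 45.2%, 21.7% and 11% and Serping1 12%, 5.25% and 6.21%, so the shares of both were lower there in every library. C4b made a larger share in KLRG1-positive libraries, 17.1%, 42.1% and 30.6%, than in KLRG1-negative ones, 5.80%, 6.70% and 4.63%, although its level was lower there. C1qa made 0.479%, 1.09% and 0% of the sum against 8.20%, 22.2% and 26.8%. The ratio of C3 to C4b in TPM was 9.51, 7.53 and 12.2 in KLRG1-negative and 2.64, 0.515 and 0.361 in KLRG1-positive libraries. The ratio of Serping1 to its target protease gene C1s1 was 3.60, 3.23 and 3.96 against 3.34, 6.39 and 3.36, and these groups overlapped.

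**Figure D3:**
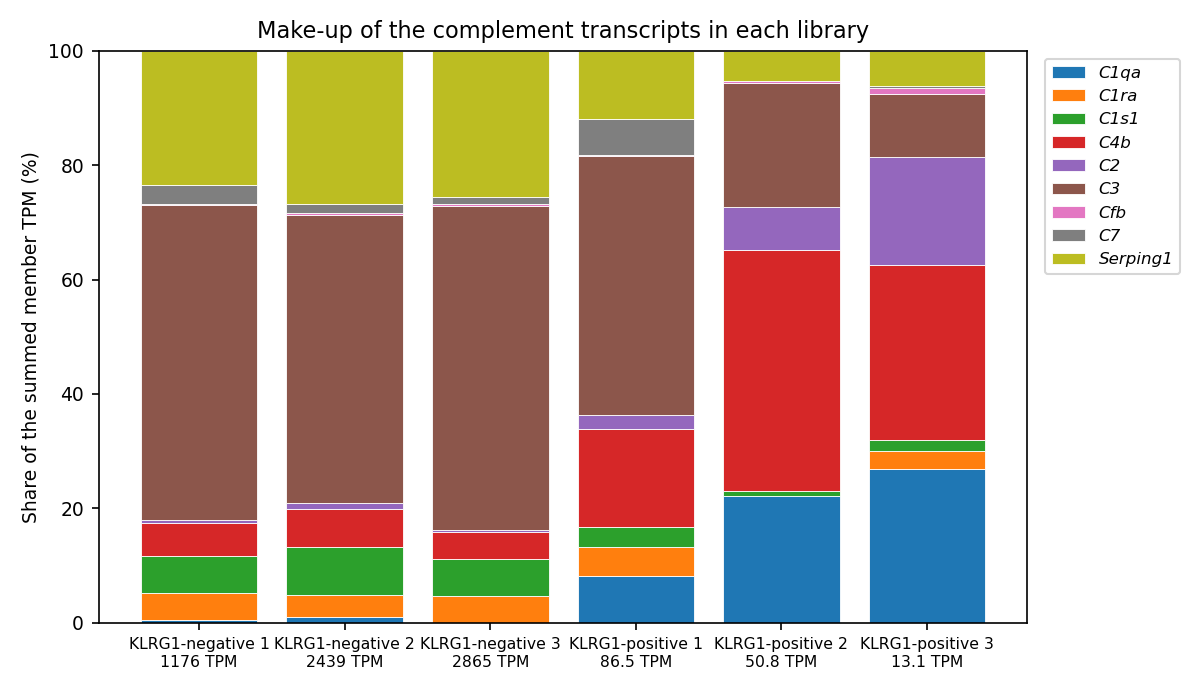
Share of each member in the summed TPM of the 9 complement members, one bar per library, with the sum printed under each bar. C3 and Serping1 take most of every KLRG1-negative bar, and C4b and C1qa take larger shares of the KLRG1-positive bars.

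Of the members, C3, C1ra and Serping1 had the steadiest ratios to the fibroblast markers inside the KLRG1-negative group, over only 3 libraries. Per 1000 fibroblast-marker counts, C3 gave 262, 254 and 251 counts, C1ra 12.8, 11.1 and 12.2, and Serping1 50.5, 61.3 and 51.1 in KLRG1-negative libraries 1 to 3. These 3 ratios varied far less than the levels themselves. The C7 ratio was 8.05, 3.81 and 3.14 in the same libraries, while its level was 37.0, 29.7 and 39.5 CPM. Cfb, at 0.399, 1.13 and 0.692 counts, and C2, at 1.60, 3.79 and 1.53, also spread more widely than the first 3 ratios. So did C1s1, at 18.8, 25.5 and 17.4 counts, and C4b, given below. In KLRG1-positive libraries the 12 markers had only 975, 629 and 442 counts, of which Pdgfrb, a marker that overlapped between the groups, gave 369, 108 and 293. Over all 12 markers the KLRG1-positive ratio was 1146, 552 and 133 for C3 and 137, 60.4 and 33.9 for Serping1, and both overlapped with the KLRG1-negative ratios. That overlap rested on Pdgfrb. Over the other 11 markers, a set chosen after the values were seen, C3 gave 1843, 666 and 396 against 262, 256 and 252. Serping1 gave 221, 72.9 and 101 against 50.6, 61.6 and 51.2, so every KLRG1-positive ratio of both was the higher. Leaving out Pdgfrb can only raise a ratio, and it gave just 184, 1104 and 439 of 82742, 197659 and 261652 KLRG1-negative marker counts. The KLRG1-positive ratios of Serping1 rest on 134, 38 and 15 counts. C4b gave 30.5, 37.4 and 22.8 counts against 480, 1186 and 410 over the 12 markers, and C2 1.60, 3.79 and 1.53 against 47.2, 145 and 172. Every KLRG1-positive ratio of C4b, C2, Cfb and C1qa exceeded every KLRG1-negative one with either set of markers. The marker sum itself was 231-fold lower by mean CPM in KLRG1-positive libraries, so a gene of unchanged level also gives higher ratios there. The higher ratios are therefore no trait of these members, and the share over all genes was not computed. Those of Cfb rest on 2, 4 and 3 counts. C1s1, C1ra and C7 overlapped with either set. The part of fibroblast RNA in the levels was not tested.

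**Figure D4:**
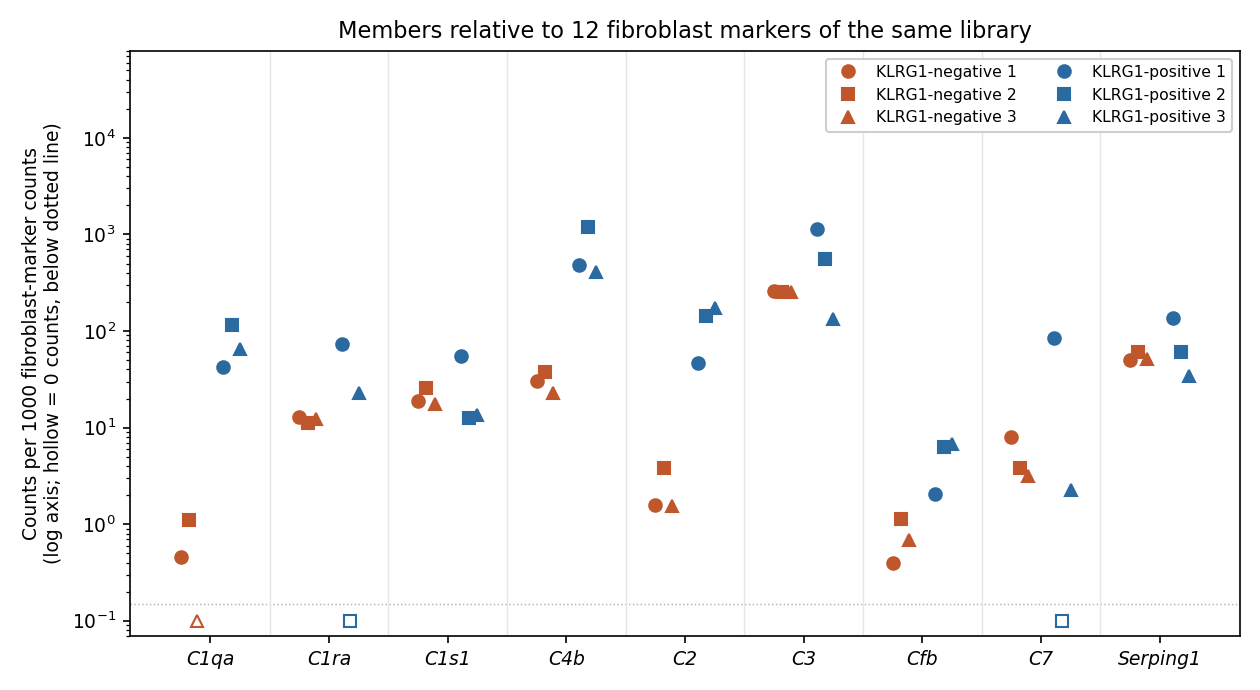
Counts of each member per 1000 counts of the 12 fibroblast markers in each library, on a log axis; hollow symbols are 0 counts. C4b, C2, Cfb and C1qa lie higher in every KLRG1-positive library, and the other 5 members overlap between the groups. For C3 and Serping1 this overlap was absent over the 11 markers other than Pdgfrb. The marker counts were themselves far lower in KLRG1-positive libraries, so a gene of unchanged level would also lie higher there.

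Profiles across the 6 libraries were compared by the root mean square (RMS) difference of centred log2 CPM over 10285 protein-coding genes. The nearest to Serping1 were C1s1 at 0.29, C1s2 at 0.30, Igfbp6 at 0.39, Col5a1 at 0.44 and Loxl1 at 0.45, the last 3 encoding a growth-factor-binding protein, a collagen chain and a collagen cross-linking enzyme. Near C3 were Plat at 0.21, Serpinh1 at 0.38, Serping1 at 0.48 and Ano1 at 0.54. Plat encodes tissue plasminogen activator and Serpinh1 a collagen chaperone. Near C1qa were Cd300lf at 0.56, Gstcd at 0.61, Cpeb2 at 0.62 and Fcna at 0.63, each farther away than those named for Serping1 and C3. Fcna, the gene of ficolin A, stood at 6.17, 25.9 and 0 CPM against 6.36, 9.03 and 1.51 CPM.

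The rest of the complement system was read from a list of 50 further genes in 6 roles, of which 30 passed the low-count filter. The test called 2 of the 30 lower, Cd55 and Cd55b, and 0 higher, while 28 did not pass; of all tested genes 1.21% were called lower and 0.125% higher. Before adjustment edgeR put 1 of the 30 higher at p under 0.05, where 4.19% of all tested genes were. DESeq2 called 1 higher, where it called 350 of its 18307 tested genes higher. The gene was Hc in both cases. Of the 30, 23 had a negative log2 fold change, with a median of -1.02, and 11 lay lower in KLRG1-positive cells without overlap, where 15.2% of all tested genes did. Some of them, C1rb and C1s2 included, passed the filter through their KLRG1-negative counts. Of the 20 untested genes 11 had 0 counts in every library, among them Mbl1, Mbl2, Fcnb and Colec10 of the recognition molecules, C8a, C8b and C9 of the pore, and Cfi, C4bp and Cpn2 of the soluble regulators.

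Among recognition molecules and their proteases 8 of 15 genes were tested and 0 passed, with a median log2 fold change of -4.26. Colec12, a scavenger collectin, stood at 90.2 ± 52.6 against 1.62 ± 1.75 CPM (SD, n = 3 each; log2 fold change -5.80, edgeR adjusted p = 0.0990). In the alternative pathway, Cfp, which encodes the convertase stabiliser properdin, stood at 57.8 ± 13.3 against 26.9 ± 7.54 CPM (log2 fold change -1.11, edgeR adjusted p = 0.144). Of the terminal pathway 2 of 6 genes were tested. Hc, the mouse C5 gene, was the only one of the 30 lying higher in every KLRG1-positive library, an order that 9.46% of all tested genes showed. It stood at 9.50 ± 1.96 against 24.4 ± 9.38 CPM (SD, n = 3 each; log2 fold change 1.36 ± 0.42, edgeR adjusted p = 0.183, DESeq2 adjusted p = 0.0290). C8g had a log2 fold change of -0.24 (edgeR adjusted p = 0.864).

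Of the soluble regulators 3 of 9 were tested and 0 passed. Clu, the gene of clusterin, stood at 197 ± 111 against 9.26 ± 10.6 CPM (SD, n = 3 each; log2 fold change -4.41, edgeR adjusted p = 0.197). It lay in the direction of Serping1 without being called.

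Of the membrane regulators 6 of 8 were tested, and 2 were called lower. Cd55, the decay-accelerating factor that dismantles C3 convertases on the cell's own surface, stood at 164, 71.0 and 140 CPM in KLRG1-negative and at 7.77, 5.82 and 11.8 CPM in KLRG1-positive libraries. It fell from 125 ± 48.4 to 8.47 ± 3.05 CPM (SD, n = 3 each), with a log2 fold change of -3.88 ± 0.45 (SE; edgeR adjusted p = 0.0295). The call held with the replicate block (adjusted p = 0.0455) and ended on leaving out any one library (adjusted p from 0.0577 to 0.145). Its neighbouring paralog Cd55b fell from 12.3 ± 4.50 to 0.806 ± 0.305 CPM (log2 fold change -3.92, edgeR adjusted p = 0.0430), was not called with the block (adjusted p = 0.0772), and was likewise lost without any one library (adjusted p from 0.0879 to 0.171). Of the 50-base windows of Cd55 transcripts 9.12% also occurred in another gene, mostly in Cd55b, and of those of Cd55b 30.4% did, 23.0% in Cd55. Cr1l, the gene of the rodent regulator Crry, stood at 110 ± 13.9 against 123 ± 14.6 CPM (SD, n = 3 each), and its log2 fold change was 0.16 ± 0.19 (SE; edgeR adjusted p = 0.797). The receptors were all tested, 10 of 10, and 0 passed. Itgb2, the beta chain shared by complement receptors 3 and 4, stood at 936 ± 191 against 1089 ± 94.2 CPM (log2 fold change 0.22, edgeR adjusted p = 0.704). C1qbp, which encodes a mitochondrial protein that binds C1q, stood at 77.2 ± 40.5 against 66.4 ± 62.8 CPM (log2 fold change -0.22, edgeR adjusted p = 0.960).

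**Figure D5:**
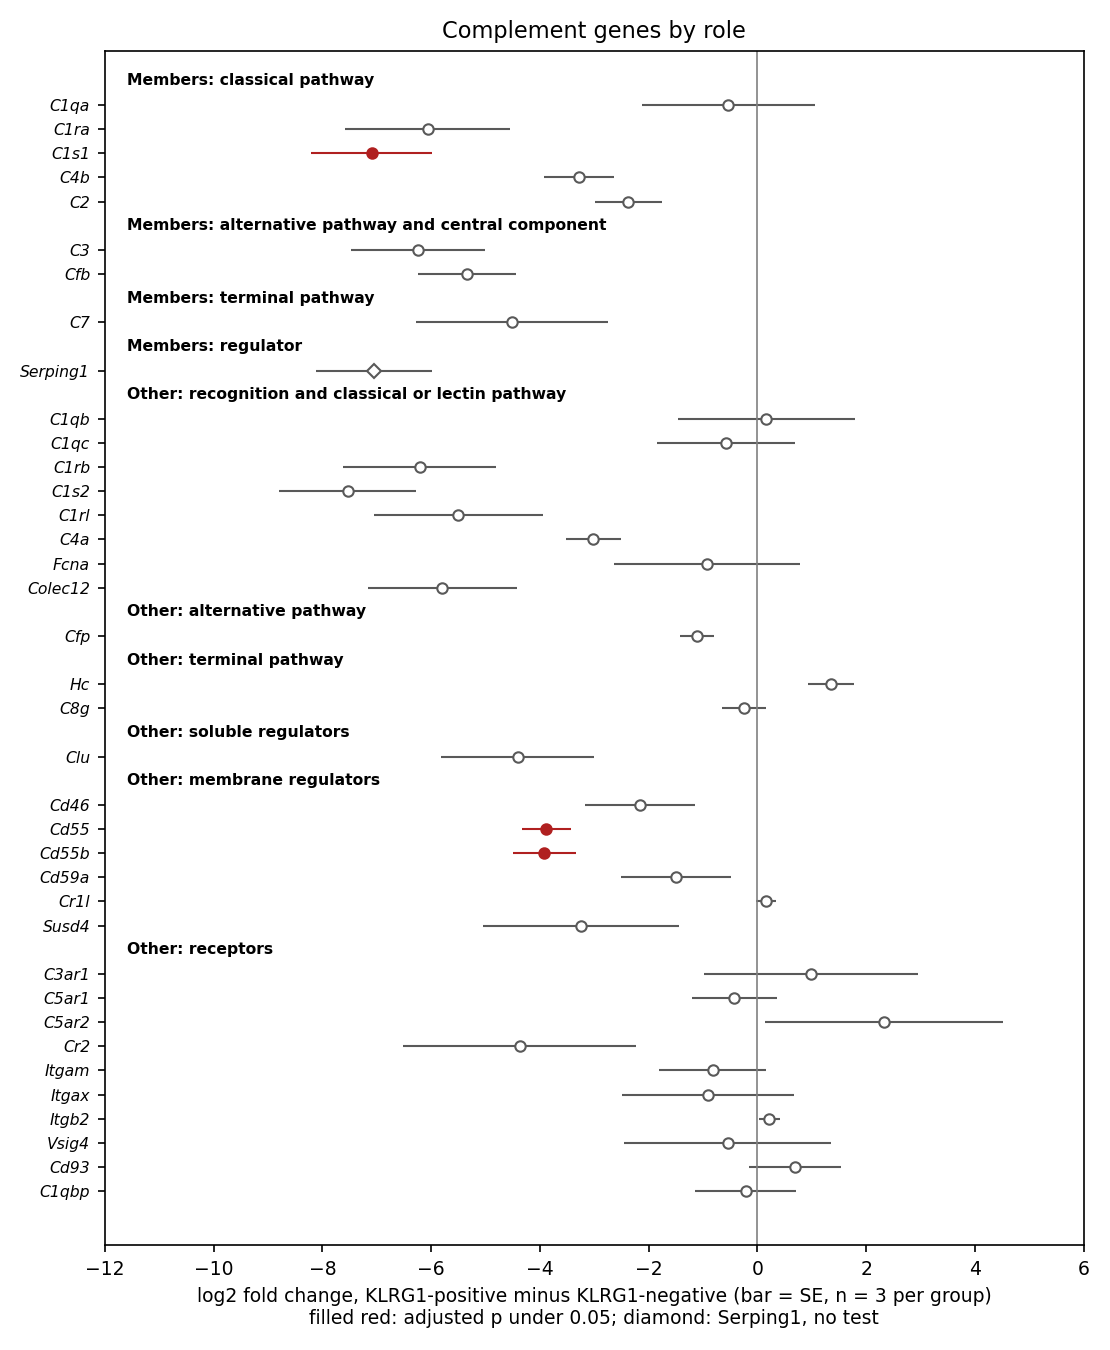
Log2 fold change (KLRG1-positive minus KLRG1-negative, x axis) of the 9 members and of tested genes of the wider list, by role, with bars of 1 standard error; filled red symbols passed the edgeR threshold, and the diamond is Serping1, shown without a test. Only C1s1, Cd55 and Cd55b are filled, in the fit without the replicate block, with which only Cd55 passed. Of the members C1qa alone has a bar that crosses 0.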

How the data were processed

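The 6 libraries came from sorted mouse lung cells and a SMARTer low-input kit followed by Nextera XT, which does not mark strand, per the labels' protocols. Reads were aligned with STAR 2.4.1d per the submitters' processing notes. The deposited values are raw counts per gene that the authors made with featureCounts 1.5.2 on GRCm38 with Ensembl 90, counting without strand and leaving out multi-mapping and ambiguous reads, per the file headers; multi-mapping reads were 26.3 to 32.3% and ambiguous reads 2.49 to 2.81%. The gene lengths used for TPM are the deposited ones, in bases.

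Symbols were matched by Ensembl identifier for 52403 of 52636 genes. Counts were tested with edgeR 4.0.16 in R 4.3.3 (TMM, filterByExpr, robust quasi-likelihood test, Benjamini-Hochberg adjustment), after a check on simulated data. The square root of the dispersion common to all genes was 0.63. SE is the log2 fold change divided by the root of the F statistic. Sharing of sequence was read from 50-base windows of the reference transcripts. Profile distances used log2 CPM with a prior count of 2.

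Around the group means, libraries sharing a number deviated together (correlations across genes of 0.38, 0.33 and 0.18). The labels do not state a pairing, and the main fit leaves it out. Calls given without the block are therefore unpaired, and the alternatives include the number as a block. The others were DESeq2 1.42.0 as test and as size factors, total-count scaling, no low-count filter, a filter of 1 CPM in 3 libraries, no robust fit, and leaving out each library.

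The members, gene lists and tests were chosen with earlier results of these data known. Named genes are the 9 members, the wider complement genes past the threshold and the 2 most abundant tested of each role, the 5 nearest profiles of Serping1, C3 and C1qa, and up to 2 markers of a list. C1qb, C1qc, C4a, Gm20547, Gm16567, Pdgfrb, C3ar1, C5ar1, Cr2 and the complement genes without counts are outside this rule. Some genes that the rule names are not reported here.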

Additional observations from a re-analysis of the deposited data

How the results depend on the processing

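Over 13 alternatives the log2 fold changes of the 8 tested members gave 104 values: 86 kept their direction and side of the threshold, 6 lost the call, all of them C1s1, 10 gained one, and 2 changed sign. Both sign changes were C1qa, 0.83 with the replicate block and 1.29 without KLRG1-negative library 2, in a range of -1.11 to 1.29 on leaving out a library; the cause was not tested. The number of members called lower, 1, became 7 with DESeq2, 2 with the 1 CPM filter, 2 without the robust fit, 0 with the replicate block and 0 to 2 on leaving out a library, and 0 were called higher throughout. Among all genes 184 were called lower and 19 higher. DESeq2 called 1609 lower and 350 higher, the fit without a low-count filter 282 and 37, and the replicate block 53 and 0. The 1 CPM filter called 250 lower and 25 higher, and the fit without the robust step 223 and 20. More genes were thus called over all genes too where more members were. The fits without a library called 0 to 159 lower and 0 to 5 higher. Of the wider complement list 2 were called lower, against 11 with DESeq2, 4 without the low-count filter, 4 with the 1 CPM filter, 4 without the robust fit, 1 with the replicate block and 0 to 1 without a library. DESeq2 called 1 higher, Hc, where the other alternatives called 0. Serping1 ranged from -8.38 to -6.41 on leaving out a library. Leaving Pdgfrb out of the fibroblast markers, an alternative chosen after seeing the data, ended the overlap of the C3 and Serping1 ratios. The replicate block changed no other call of a member. In KLRG1-positive libraries Cfb rested on 2 to 4 counts and C7 on 0 to 82, so their levels there are imprecise. All genes were centred within 0.1 on the log2 scale under each scaling, with a median of -0.05, -0.05 or -0.08.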

Other observations

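The receptors for the complement fragments C3a and C5a were scarce in both groups; these genes were named after their values were seen. C3ar1, the C3a receptor gene, stood at 2.11, 0 and 1.25 CPM in KLRG1-negative and at 2.76, 3.90 and 0 CPM in KLRG1-positive libraries. C5ar1, the main C5a receptor gene, stood at 8.62, 4.10 and 2.93 CPM against 5.52, 5.07 and 1.07 CPM. The groups overlapped for both, and neither difference passed edgeR's quasi-likelihood test (adjusted p = 0.893 and 0.880). Cr2, a receptor gene for C3 fragments that is known from B cells, stood at 9.74, 0 and 13.7 CPM against 0.394, 0 and 0.710 CPM (edgeR adjusted p = 0.411). The summed B cell markers were 26982, 7116 and 27449 CPM in the same KLRG1-negative libraries, also lowest in library 2, and their part in Cr2 was not tested.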
